A study of Mus musculus with 10 samples.

Results

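The set examined here, named lipoprotein receptors, holds 8 genes of receptors for lipoproteins and lipids, of sorting receptors and of a receptor chaperone: Vldlr, Lrp8, Lrp1, Lrpap1, Sorl1, Sort1, Scarb1 and Cd36. All probe sets annotated to these symbols were taken, 27 in number, out of 45037 probe sets on the array and out of 18193 named genes. The set was assembled after Vldlr had been seen among the genes whose genotype groups did not overlap, so the Vldlr differences given here describe the values that chose it and carry no test. Pancreatic islets of 5 female mice heterozygous for Men1 and of 5 wildtype female littermates were compared, all aged 5 weeks and of the strain labelled as C57 on a 129 background. About 100 islets were pooled per mouse and each mouse gave 1 array, so a replicate is a mouse. Men1 encodes menin, a tumour suppressor of endocrine cells. The sources used here do not describe the mutant allele, and heterozygous mice carry 1 unaltered copy of the gene. Every value below is a log2 array signal, every difference is heterozygous minus wildtype on that log2 scale, with its standard error as SE.

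Receptors of the low density lipoprotein (LDL) receptor family are single-pass membrane proteins with ligand-binding repeats outside the cell and short tail motifs that recruit endocytic adaptors. Vldlr and Lrp8 bind apolipoprotein E-rich particles and are also the receptors for the secreted protein reelin, whereas Lrp1 is a large scavenging receptor of many ligands. Lrpap1 is a chaperone of the endoplasmic reticulum that keeps these receptors free of ligand until they leave it. Sorl1 and Sort1 are sorting receptors that move cargo between the Golgi apparatus, endosomes and the surface. Scarb1 takes up cholesterol from high density lipoprotein, and Cd36 takes up long-chain fatty acids and oxidised lipoproteins and is typical of capillary endothelium, macrophages and adipocytes.

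Probe sets with a log2 value above 4 on 5 or more of the 10 arrays were kept, which left 18567 probe sets on the array and 21 of the 27 members, at least 1 for each of the 8 genes. Array medians ran from 3.28 to 3.40, and any 2 arrays correlated at r = 0.962 to 0.988 over the kept probe sets. The targeted gene itself, Men1, averaged 6.42 ± 0.30 in heterozygous islets and 6.89 ± 0.39 in wildtype islets (SD, n = 5 each; difference -0.47, SE 0.20) in its 1 kept probe set, with overlapping groups. Whether that probe set lies in the altered part of the gene is not given, so it is no check of the labels. Beta cell markers averaged 12.61 ± 0.29 in heterozygous and 12.62 ± 0.28 in wildtype islets (8 genes). Acinar markers averaged 16.02 ± 0.17 and 16.12 ± 0.17 (8 genes, all with a lower heterozygous mean, median difference -0.025). RNA of enzyme-secreting acinar cells was thus present in both groups. In a bulk sample fewer cells of a type and less RNA per cell cannot be told apart. Of the 10 stromal markers 10 were lower in heterozygous islets, with list means of 8.77 to 10.27 against 9.64 to 10.23 in wildtype islets. Of the 9 endothelial markers 8 were lower (7.39 to 8.0 against 7.84 to 8.31 in wildtype). No stromal or endothelial marker passed limma's adjusted test of genotypes, and the list means of the groups overlapped. Over all kept probe sets 43.6% were lower in heterozygous islets, and the counts of lower markers carry no test. Heterozygous mice 2 and 5 stood apart in B cell and leukocyte markers (Ptprc, Ms4a1 and Cd79a), with list means of 7.04 and 6.70, where the other 8 mice lay between 4.65 and 5.82. The T cell markers Cd3e and Cd3g were below 2.8 on all 10 arrays. Several differences and marker correlations below are also given without mice 2 and 5.

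Vldlr was measured by 6 probe sets, of which 5 were kept, and all 5 had a higher mean in heterozygous than in wildtype islets. In 3 of them every heterozygous mouse lay above every wildtype mouse. Over all kept probe sets 56.4% had a higher heterozygous mean and 0.528% separated the groups in that direction. Since this contrast led to the choice of Vldlr, nothing is read from these counts. Probe set 1417900_a_at stood at 6.16, 6.20, 6.08, 6.05 and 6.10 in heterozygous mice 1 to 5, against 5.41, 5.80, 5.32, 5.43 and 5.81 in wildtype mice 1 to 5. The heterozygous mice lay within 0.15 of one another, while wildtype mice 2 and 5 stood well above the other wildtype mice, and the groups did not meet. The difference was 0.56 (SE 0.12), or 1.48-fold.

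Probe set 1438258_at gave 7.83, 8.15, 8.23, 7.72 and 7.71 in heterozygous mice and 7.02, 7.28, 7.20, 7.53 and 7.54 in wildtype mice (0.61, SE 0.14; 1.53-fold). Its groups were separate, but by only 0.17 between the lowest heterozygous and the highest wildtype mouse. For 1435893_at the values were 7.49, 7.82, 7.49, 7.73 and 7.43 in heterozygous mice, against 7.27, 7.23, 7.16, 7.27 and 7.31 in wildtype mice (0.35, SE 0.097; 1.27-fold). Here the wildtype mice were the tightly grouped ones, and the gap between groups was 0.13. After a further quantile normalization 1435893_at no longer separated the genotypes, and 2 of the 5 probe sets did.

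**Figure D1:**
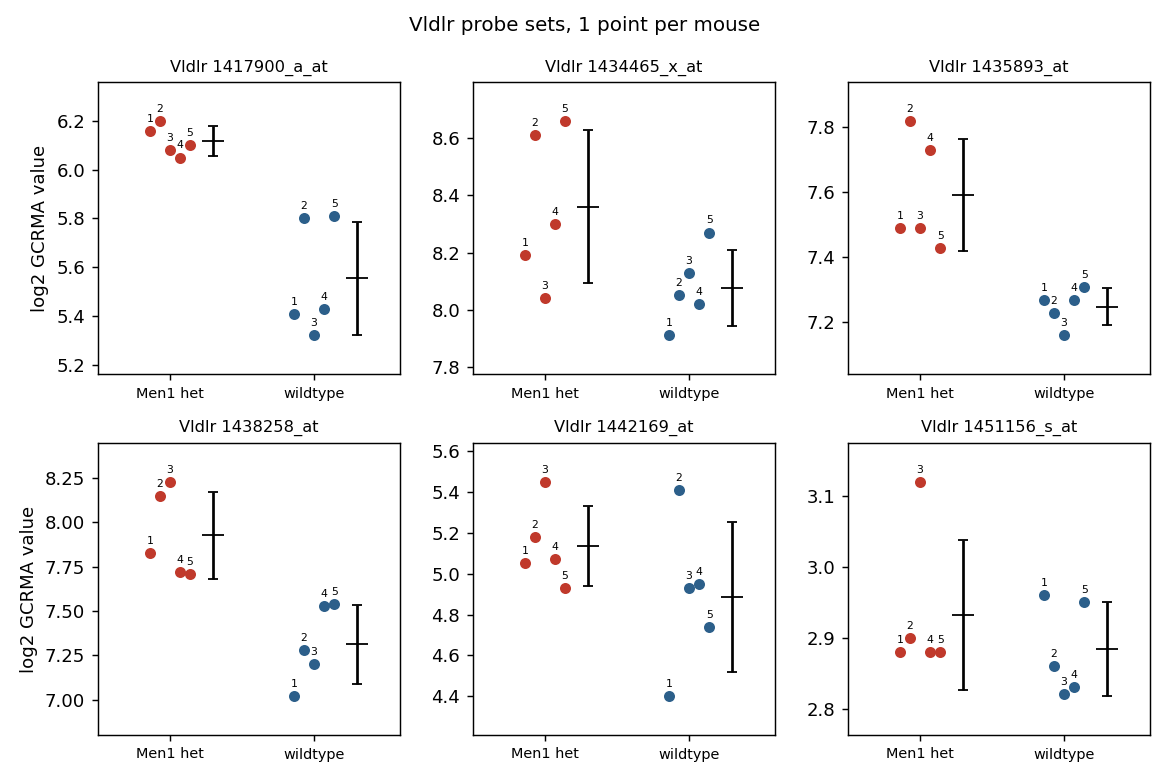
Log2 array value (y axis, own range in each panel) of the 6 Vldlr probe sets in 5 Men1 heterozygous mice (left, red) and 5 wildtype mice (right, blue), numbered by mouse, with the mean and SD as a bar beside each group. The groups are separate in 1417900_a_at, 1435893_at and 1438258_at, overlap in 1434465_x_at and 1442169_at, and lie at background, near 2.9, in 1451156_s_at.

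The remaining Vldlr probe sets overlapped between genotypes. The brightest, 1434465_x_at, stood at 8.19, 8.61, 8.04, 8.30 and 8.66 in heterozygous mice and 7.91, 8.05, 8.13, 8.02 and 8.27 in wildtype mice (0.28, SE 0.13). Its 2 highest values belong to heterozygous mice 2 and 5, the mice high in leukocyte markers, and without them its difference was 0.099. Without the same mice 1417900_a_at, 1435893_at and 1438258_at differed by 0.54, 0.32 and 0.61. An x in the name of such a probe set marks that some of its probes also match other transcripts. The dimmest kept probe set, 1442169_at, stood at 5.05, 5.18, 5.45, 5.07 and 4.93 in heterozygous mice against 4.40, 5.41, 4.93, 4.95 and 4.74 in wildtype mice (0.25, SE 0.17), and at a difference of 0.12 without wildtype mouse 1. The probe set left out, 1451156_s_at, lay between 2.88 and 3.12 in heterozygous and between 2.82 and 2.96 in wildtype islets.

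Probe sets annotated to 1 gene were compared by their scatter between mice of 1 genotype, a measure that leaves out the genotype difference. Which transcripts of the gene each probe set reads was not available. Over the 10 mice, as deviations from the genotype means, the 10 pairs of Vldlr probe sets correlated at Pearson r = -0.19 to 0.50 with a median of 0.24. The closest pair, 1438258_at and 1442169_at, gave r = 0.499 and Spearman rho = 0.612 (two-sided exact permutation within genotypes, p = 0.157 and 0.0802; Benjamini-Hochberg adjusted over 23 pairs, 0.453 and 0.340), and r = 0.520 without the 2 mice farthest from the median. The pair with the largest genotype differences, 1417900_a_at and 1438258_at, gave r = 0.357 (exact permutation p = 0.323, adjusted 0.620). The Vldlr probe sets thus shared the sign of their genotype difference, while no pair of them showed a correlation between mice that passed the test. With 10 mice a correlation that misses the threshold is not shown to be absent.

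Vldlr lies on chromosome 19 of the mouse, as does Men1. The RefSeq annotation of assembly GRCm38.p6 gives 2 start windows for it, each of 300 bases from 250 before to 50 after a start site, and both are shown because Vldlr is the gene around which the set was assembled. They lie on the plus strand at chr19:27216234-27216533 (window 1) and chr19:27216770-27217069 (window 2), 536 bases apart, and are printed 5′ to 3′ with matches to the searched motifs in capitals.
Vldlr window 1: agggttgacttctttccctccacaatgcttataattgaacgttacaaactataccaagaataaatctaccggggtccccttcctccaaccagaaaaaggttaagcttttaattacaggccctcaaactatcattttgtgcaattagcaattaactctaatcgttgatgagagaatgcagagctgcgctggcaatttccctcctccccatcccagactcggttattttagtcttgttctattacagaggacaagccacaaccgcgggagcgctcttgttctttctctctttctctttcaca
Vldlr window 2: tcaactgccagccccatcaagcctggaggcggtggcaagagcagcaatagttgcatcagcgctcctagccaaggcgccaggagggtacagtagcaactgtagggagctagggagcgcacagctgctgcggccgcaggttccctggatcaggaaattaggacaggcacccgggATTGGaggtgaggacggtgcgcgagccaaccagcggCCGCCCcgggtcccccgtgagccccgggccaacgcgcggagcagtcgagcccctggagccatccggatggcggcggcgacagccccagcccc
The motifs searched, on both strands, were the GC box GGGCGG, the CCAAT box CCAAT, the TATA box TATAAA, the E-box CACGTG and the hypoxia response core ACGTG, the last of which overlaps the E-box. Window 1 held none of them and had a G and C content of 43.0%. Window 2 had a G and C content of 68.0% and held a GC box beginning at -42 relative to the start site and a CCAAT box, as ATTGG, beginning at -78. Of 32851 RefSeq windows of the same length, 35.7% hold the GC box, 37.4% the CCAAT box, 13.6% the TATA box, 7.15% the E-box and 19.6% the hypoxia core. Which start the islets used was not measured, and a match describes the letters only.

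None of the other 7 receptors passed the test of genotypes. With limma, 0 of the 16 kept probe sets other than Vldlr passed an adjusted p of 0.05 over all 18567 probe sets, against 0% of all probe sets called (0 of 18567, the lowest adjusted p being 0.720). Each of these 16 had an adjusted p of 0.9999. An unadjusted p under 0.05 was reached by 2 of the 16, both lower in heterozygous islets, where 1.52% of all probe sets were lower and 2.57% higher at that level, 4.09% in all. Of those 760 probe sets 62.9% were higher in heterozygous islets, against 49.6% of 835 after a further quantile normalization and 48.4% to 78.7% with 1 mouse left out at a time. Of the 16 probe sets 6 had a higher and 10 a lower heterozygous mean, with a median difference of -0.022, against 43.6% lower and a median of 0.022 over all kept probe sets. The 6 include Sort1 1450955_s_at, which passed the filter through the heterozygous arrays (5 above 4, against 2 wildtype arrays). In none of the 16 were the groups separate, where 0.172% of all probe sets were separate with heterozygous mice lower. The median 95% interval of the 21 kept members reached 0.31 to either side.

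**Figure D2:**
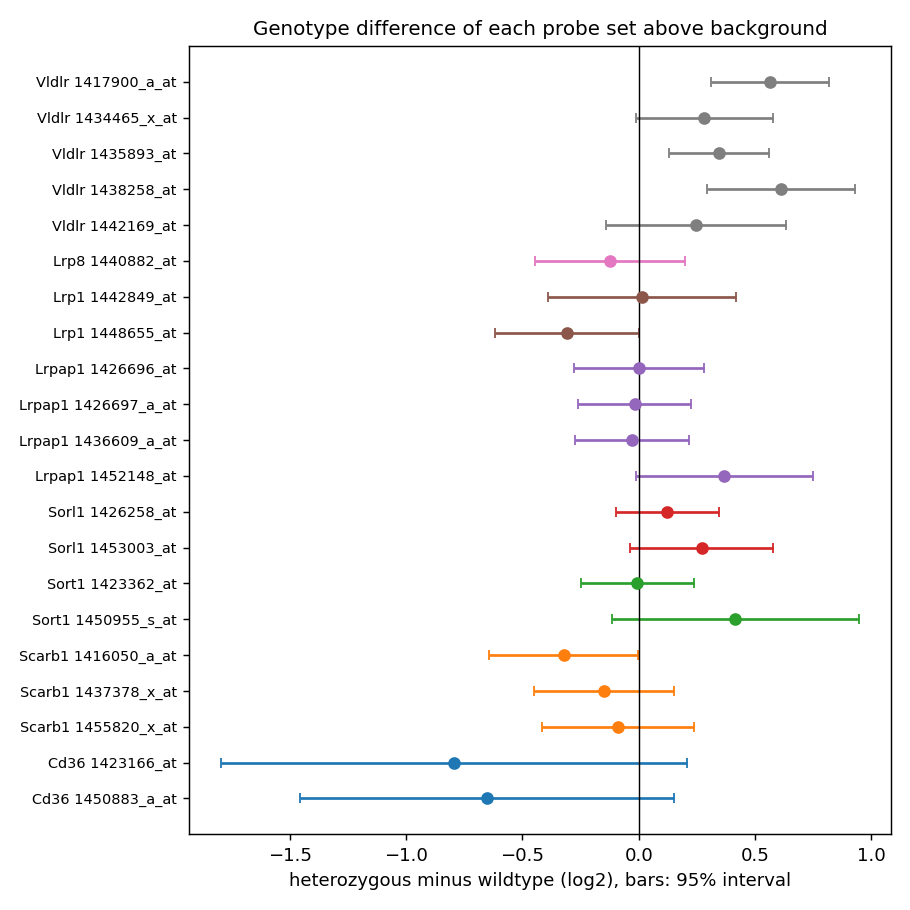
Heterozygous minus wildtype difference (x axis, log2) of the 21 kept probe sets, grouped and coloured by gene, with limma's 95% interval as bars; the Vldlr intervals describe the values that chose the gene. The 5 Vldlr probe sets lie right of 0 at 0.25 to 0.61, the Scarb1 and Cd36 probe sets left of 0, and the Lrpap1 and Sort1 probe sets near 0 except for 1 each.

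Lrp8, the closest relative of Vldlr and its partner as a reelin receptor, was kept in 1 of 3 probe sets. That probe set, 1440882_at, stood at 5.70, 4.98, 5.49, 5.43 and 5.75 in heterozygous mice and 5.51, 5.42, 5.71, 5.75 and 5.57 in wildtype mice. Heterozygous mouse 2 was the lowest of all 10 and the groups otherwise overlapped throughout (-0.12, 95% interval -0.44 to 0.20; limma adjusted p = 0.9999). The other Lrp8 probe sets lay below 3.8 on all 10 arrays.

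Lrp1, the scavenging receptor of fibroblasts, mural cells and macrophages, gave 2 kept probe sets with unlike differences, a contrast between them that was not tested. In 1448655_at the heterozygous mice had 6.52, 6.45, 6.09, 6.56 and 6.50, against 6.81, 6.50, 6.52, 7.12 and 6.72 in wildtype mice, so 2 of the 5 heterozygous mice lay below all wildtype mice (-0.31, SE 0.14; limma adjusted p = 0.9999). In 1442849_at the means were nearly equal, 6.16 ± 0.22 in heterozygous and 6.15 ± 0.38 in wildtype islets (0.015, SE 0.18), and the sign turned under quantile normalization (-0.017) and without mice 2 and 5 (-0.11). Between mice of 1 genotype the probe sets correlated at r = 0.647 (exact permutation p = 0.0710, adjusted 0.233).

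Lrpap1, the receptor chaperone, was kept in 4 probe sets, 3 of which were designed against the same database sequence. Of these 4, 3 gave heterozygous minus wildtype differences between -0.028 and 0.0034, with the brightest, 1436609_a_at, at 11.24 ± 0.13 in heterozygous and 11.27 ± 0.18 in wildtype islets (SD, n = 5 each; 95% interval of the difference -0.27 to 0.22). The other one, 1452148_at, stood at 7.72, 7.87, 7.47, 7.88 and 8.04 in heterozygous mice, against 7.33, 7.52, 7.93, 7.41 and 6.94 in wildtype mice. Apart from heterozygous mouse 3 and wildtype mouse 3, which changed places, its groups were apart (0.37, SE 0.17; limma adjusted p = 0.9999). Probe set 1452148_at followed 1426696_at and 1436609_a_at between mice of 1 genotype, at r = 0.775 and 0.747 (adjusted exact permutation p = 0.115 and 0.156), and 0.523 and 0.286 without the 2 mice farthest from the median. With 1426697_a_at its r was 0.135 (adjusted exact permutation p = 0.930).

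Of the 4 kept probe sets of the sorting receptors 3 had a higher heterozygous mean, and none passed the test (limma adjusted p = 0.9999 each). The 3 include Sort1 1450955_s_at, whose passing of the filter favoured a higher heterozygous mean, so nothing is read from the count. Sorl1, which steers the amyloid precursor protein away from endosomes, stood at 7.35, 7.60, 7.73, 7.50 and 7.42 in heterozygous mice and 7.02, 7.42, 6.89, 7.46 and 7.46 in wildtype mice in 1453003_at (0.27, SE 0.14). Heterozygous mice 2, 3 and 4 lay above all wildtype mice there. The other kept Sorl1 probe set, 1426258_at, differed by 0.12 (SE 0.10), and by 0.053 without heterozygous mouse 5, and the 2 probe sets correlated at r = 0.018 between mice (exact permutation p = 0.960, adjusted 0.976; r = 0.671 without the 2 mice farthest from the median). Sort1, the gene of sortilin, had its brightest probe set 1423362_at at 9.18 ± 0.077 in heterozygous and 9.19 ± 0.21 in wildtype islets (SD, n = 5 each; 95% interval -0.25 to 0.24). The dim 1450955_s_at passed the filter through the heterozygous arrays, 5 of which lay above 4, against 2 of the wildtype arrays. It had 4.87, 4.49, 4.56, 4.56 and 4.22 in heterozygous mice and 3.87, 4.73, 3.66, 4.72 and 3.65 in wildtype mice, a pattern in which the wildtype mice fell into 2 levels (0.42, SE 0.24). The remaining Sort1 probe set, left out as dim, ranged from 2.92 to 4.11 in heterozygous and from 2.74 to 4.72 in wildtype islets.

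Scarb1, the receptor for high density lipoprotein, had a lower heterozygous mean in all 3 of its probe sets. Values of 1416050_a_at were 7.96, 8.39, 8.05, 8.13 and 7.87 in heterozygous mice, against 8.21, 8.44, 8.78, 8.50 and 8.09 in wildtype mice, and 3 of the 5 heterozygous mice lay below all wildtype mice (-0.32, SE 0.15; limma adjusted p = 0.9999). The 2 brighter probe sets, 1437378_x_at and 1455820_x_at, differed by -0.15 (SE 0.14) and -0.087 (SE 0.15) with groups that overlapped widely. Without mice 2 and 5 the first of them stood at -0.064, and with 1 mouse left out at a time the pair ran from -0.25 (without wildtype mouse 1) to -0.078 and from -0.17 to -0.016 (both ends near 0 without wildtype mouse 3). Between mice of 1 genotype the 3 pairs of Scarb1 probe sets correlated at r = 0.460 to 0.753. The closest pair was the 2 x-type probe sets (r = 0.753, rho = 0.588, exact permutation p = 0.0193 and 0.0875, adjusted 0.115 and 0.340; r = 0.498 without the 2 mice farthest from the median).

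Cd36, the fatty acid and scavenger receptor, varied more between heterozygous mice than any other kept member (SD 0.92 and 0.79), and its heterozygous means were the furthest below wildtype. In 1450883_a_at the heterozygous mice had 6.44, 7.68, 5.78, 6.57 and 7.50, against 6.90, 7.95, 8.0, 7.26 and 7.11 in wildtype mice (-0.65, SE 0.36; 95% interval -1.46 to 0.15; limma adjusted p = 0.9999). Heterozygous mice 1, 3 and 4 lay below all wildtype mice, while heterozygous mice 2 and 5 lay among them. Without mice 2 and 5, an exclusion made for their leukocyte markers with these results known, the difference was -1.18 (limma adjusted p = 0.9996, unadjusted 0.00360). The second kept probe set, 1423166_at, was designed against the same database sequence and stood at 5.96, 6.30, 4.30, 4.79 and 6.25 in heterozygous mice, against 5.86, 7.17, 6.94, 6.13 and 5.47 in wildtype mice (-0.79, SE 0.45, and -1.30 without mice 2 and 5). Leaving out heterozygous mouse 3 alone moved the differences to -0.40 and -0.49. The 2 probe sets followed each other between mice (r = 0.869, rho = 0.794, exact permutation p = 0.00729 and 0.0178, adjusted 0.115 and 0.340; r = 0.803 without the 2 mice farthest from the median).

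**Figure D3:**
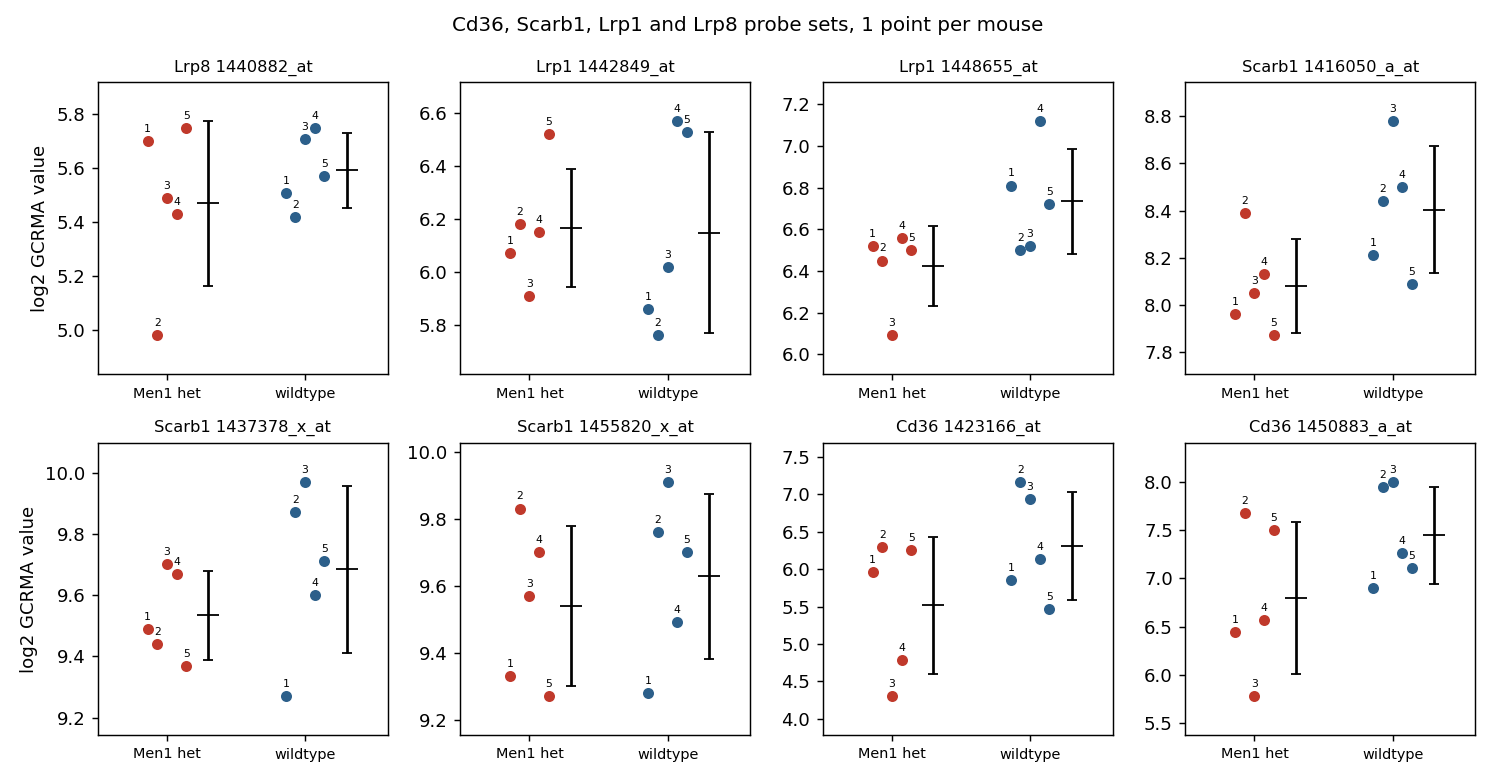
Log2 array value (y axis, own range in each panel) of the kept probe sets of Lrp8, Lrp1, Scarb1 and Cd36 in 5 Men1 heterozygous mice (left, red) and 5 wildtype mice (right, blue), numbered by mouse, with the mean and SD as a bar. In both Cd36 panels heterozygous mice 3 and 4 lie below all wildtype mice and mice 2 and 5 lie among them; no panel separates the groups.

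Since an islet preparation holds vessels, leukocytes and acinar cells, each receptor's brightest probe set was set against the mean of 7 marker lists over the 10 mice, again as deviations from the genotype means. Of the 56 relations 0 passed an adjusted p of 0.05 by exact permutation within genotypes, and 7 had an unadjusted p under 0.05. The brightest Vldlr probe set ran with the lymphocyte list (r = 0.872, rho = 0.794, exact permutation p = 0.0197 and 0.0635, adjusted 0.275 and 0.593; r = 0.733 without the 2 mice farthest from the median, and 0.51 without heterozygous mice 2 and 5). With the myeloid list its r was 0.79, and 0.52 without mice 2 and 5 (adjusted exact permutation p = 0.364 over all mice). As a description, r with the myeloid list was -0.096 for 1417900_a_at, 0.35 for 1435893_at, -0.36 for 1438258_at and -0.29 for 1442169_at. The other kept Vldlr probe sets had r = 0.37 (1417900_a_at), 0.27, 0.20 and -0.19 with the lymphocyte list, a comparison chosen after the values were seen and given with no test. Without mice 2 and 5 the order turned, with 1417900_a_at at 0.70 and the brightest probe set at 0.51. Probe set 1438258_at, with the largest Vldlr difference, ran with the acinar list instead (r = 0.83, as a description), and that list averaged 16.02 in heterozygous and 16.12 in wildtype islets. The acinar mean varied mainly through 1 gene, Ctrc, at 11.34 to 13.31 in heterozygous and 12.21 to 15.52 in wildtype mice. Of the other acinar markers Cel varied most, from 15.80 to 16.21, and the relation to single acinar genes was not tested. The part of these cell types in the Vldlr values was not tested.

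**Figure D4:**
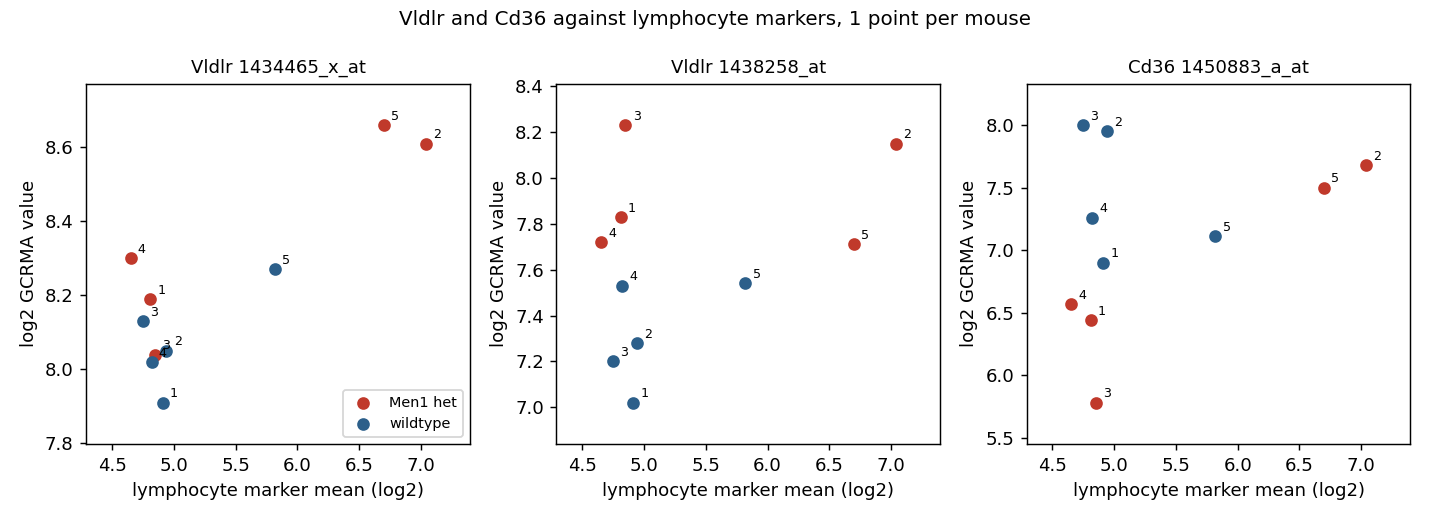
Log2 array value (y axis) of the 2 brightest Vldlr probe sets and the brightest Cd36 probe set against the mean of 3 lymphocyte and leukocyte markers (x axis, log2), 1 point per mouse, heterozygous in red and wildtype in blue. Heterozygous mice 2 and 5 lie far right in each panel; they are the highest in Vldlr 1434465_x_at, but heterozygous mouse 3, with few such transcripts, is the highest in 1438258_at.

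The brightest Cd36 probe set ran with the endothelial list (r = 0.688, rho = 0.733, exact permutation p = 0.0573 and 0.0292, adjusted 0.356 and 0.497). Its r was 0.822 without the 2 mice farthest from the median, and 0.89 without heterozygous mice 2 and 5. With the myeloid list it gave r = 0.737 and rho = 0.709 (exact permutation p = 0.0716 and 0.0881, adjusted 0.364 and 0.616). That r was 0.569 without the 2 mice farthest from the median, and 0.44 without mice 2 and 5. The other kept Cd36 probe set, 1423166_at, had r = 0.586 with the endothelial list and 0.380 with the myeloid list, as a description. Without the 2 mice farthest from the median these were 0.166 and 0.097, and without mice 2 and 5 they were 0.598 and -0.065. Of the 7 kept myeloid markers 6 were lower in heterozygous islets, with list means of 6.58 to 7.65 against 7.26 to 7.67 in wildtype islets. None of the 7 passed limma's adjusted test of genotypes, and the count of lower markers carries no test. Myeloid markers Cd68, Itgam and Tyrobp, and the endothelial marker Pecam1, lay below the filter. Of the adipocyte markers only Fabp4, which capillary endothelium and macrophages also express, was kept, and Adipoq, Cidec, Lep and Retn lay below 3.2 on all 10 arrays. The part of vessels and myeloid cells in the Cd36 values was not tested. Lrpap1 ran with beta cell markers (r = 0.779, and 0.238 without the 2 mice farthest from the median) and against acinar markers (r = -0.787, and -0.673 without them), with an adjusted exact permutation p = 0.254 each. Sort1 ran with acinar markers (r = 0.758, and 0.427 without the 2 mice farthest from the median; adjusted exact permutation p = 0.254). In both relations the acinar mean varied mainly through Ctrc. The heterozygous and wildtype means of the brightest Lrpap1 and Sort1 probe sets differed by less than 0.03.

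**Figure D5:**
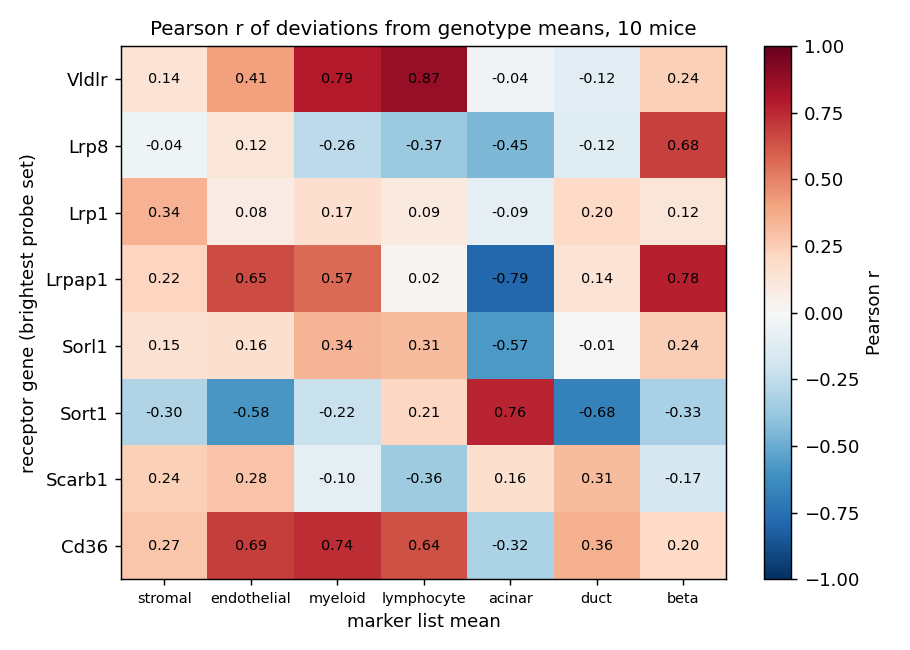
Pearson r (colour and number, -1 to 1) between each receptor gene's brightest kept probe set (rows) and the mean of each marker list (columns) over 10 mice, as deviations from the genotype means. The strongest values are Vldlr (1434465_x_at) with lymphocyte and myeloid markers (0.87 and 0.79), Lrpap1 and Sort1 with acinar markers (-0.79 and 0.76), and Lrpap1 with beta cell markers (0.78). The other Vldlr probe sets are not shown, and the acinar mean varied mainly through Ctrc.

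Over the same 10 mice the genes whose brightest probe sets ran closest to Vldlr 1434465_x_at, out of 10537 searched, were Cox6b1 (r = 0.980), Mrpl3 (0.957), Mettl5 (0.957), Herc4 (0.944), Macf1 (0.937) and Dpep1 (0.936). Cox6b1 encodes a subunit of cytochrome c oxidase and Mrpl3 a mitochondrial ribosomal protein, and their genotype differences were 0.094 (SE 0.099) and -0.044 (SE 0.096). Closest to Cd36 were Zfp639 (0.961), Dazap2 (0.954) and Vps26a (0.937), and closest to Scarb1 were Xpc, Rusf1 and Zhx3 (0.939 to 0.926). Lrp8 was followed by Akap13, Slc39a3 and Phka2 (0.953 to 0.934), Lrp1 by Fat4, Slc26a2 and Tpi1 (0.944 to 0.885), and Lrpap1 by Zfp326, Ift74 and Mfsd13a (0.961 to 0.951). For Sorl1 the list was Rnf19b, Bahd1 and Bag5 (0.931 to 0.893), and for Sort1 it was Il17ra, Tnks2 and Eml4 (0.954 to 0.934). With this many genes and 10 mice such values describe these arrays only. Among the brightest probe sets of the receptors, the closest pair was Vldlr 1434465_x_at and Cd36 1450883_a_at (r = 0.790). Both were high in heterozygous mice 2 and 5 among heterozygous mice.

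Genes that work with the receptors were taken from 8 lists covering 103 symbols, of which 63 genes were kept, 1 probe set each. None passed the limma test over all probe sets (0 higher and 0 lower in every list), and each gene named here had an adjusted p of 0.9999. Of the 63 genes 37 had a higher and 26 a lower heterozygous mean, a median difference of 0.042, against 54.4% higher and a median of 0.014 over all 10538 genes. An unadjusted p under 0.05 was reached by 6 of the 63, 2 higher and 4 lower, against 3.67% of all genes.

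Among ligands and lipases, 3 of 9 kept genes had a higher and 6 a lower heterozygous mean (median -0.17). Reln encodes reelin, the secreted ligand of Vldlr and Lrp8. It stood at 5.10, 5.00, 5.04, 5.91 and 5.46 in heterozygous mice, against 5.90, 5.65, 6.06, 6.56 and 6.73 in wildtype mice. Of the heterozygous mice 4 lay below all wildtype mice, and the exception was mouse 4, which had the highest stromal marker mean of the heterozygous mice (10.27). Wildtype mouse 5 had the highest Reln value with the lowest wildtype stromal mean (9.64), and wildtype mouse 2 the lowest wildtype Reln value with the highest wildtype stromal mean (10.23). Wildtype mouse 4 was high in both (6.56 and 10.17). The Reln difference was -0.88 (SE 0.24; limma adjusted p = 0.9999, unadjusted 0.00374), and over the 10 mice Reln and the stromal list had r = 0.46 and rho = 0.22 as a description, with r = 0.30 without the 2 mice farthest from the median, and the part of stromal cells in its values was not tested. Apoe, whose protein is a ligand of the family, differed by -0.35 (SE 0.20), and App, the amyloid precursor that Sorl1 and Lrp1 bind, by -0.17 (SE 0.11).

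Of the adaptors that bind receptor tails and the ligase and sorting factors that act on them, 1 of 5 had a higher and 4 a lower heterozygous mean (median -0.21). Dab2, an endocytic adaptor, stood at 5.56, 5.29, 6.08, 7.05 and 6.61 in heterozygous mice, against 6.63, 7.14, 7.27, 6.59 and 6.71 in wildtype mice (-0.75, SE 0.31). Heterozygous mice 1, 2 and 3 were the low ones, and heterozygous mice 4 and 5 lay among the wildtype mice. The stromal marker mean was 10.27 in heterozygous mouse 4 and 9.35 in heterozygous mouse 5, against 9.64 to 10.23 in wildtype mice. Dab2 ran with the stromal and the endothelial list at r = 0.70 and 0.68 (rho = 0.50 and 0.55; r = 0.49 and 0.71 without the 2 mice farthest from the median), as a description, and the part of those cells in its values was not tested. The engulfment adaptor gene Gulp1 differed by -0.53 (SE 0.25) and Numb by -0.21 (SE 0.11).

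The other 6 kept genes of the LDL receptor family all had a higher heterozygous mean, but by 0.0023 to 0.18, with a median of 0.088. None of the 6 had an unadjusted limma p under 0.05, and 54.4% of all 10538 genes were higher. The one with the smallest p was the Wnt co-receptor gene Lrp6, which averaged 6.21 ± 0.14 in heterozygous islets against 6.03 ± 0.11 in wildtype islets (difference 0.18, SE 0.096), followed by Ldlrad3 (0.13, SE 0.13) and Ldlrad4 (0.098, SE 0.12). Ldlrad4 lay near the filter, at 4.65 in heterozygous mouse 1 and 4.10 to 4.15 in the other heterozygous mice. Of 7 sorting receptor and retromer genes 6 had a higher and 1 a lower mean (median 0.051), among them the Golgi adaptors Gga2 (0.12, SE 0.12) and Gga1 (0.14, SE 0.15) and the retromer subunit gene Vps26a (-0.086, SE 0.11). Of 5 scavenger receptor genes 1 had a higher and 4 a lower mean (median -0.24). Scara5 was at 4.25 to 4.62 in heterozygous mice and at 4.47 to 6.12 in wildtype mice, where wildtype mice 2 and 3 alone exceeded 6 (-0.73, SE 0.35). Stab1 differed by -0.24 (SE 0.16) and Cxcl16 by 0.25 (SE 0.18). Cxcl16 lay near the filter, at 4.90 and 4.73 in heterozygous mice 4 and 5 and 4.05 to 4.06 in the other heterozygous mice. Its wildtype values were 4.01 to 4.34.

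Sterol sensing and cholesterol efflux genes had a higher heterozygous mean in 10 of 11 cases, with a median of 0.11. Over all 10538 genes 54.4% were higher, and 1 of the 11 had an unadjusted limma p under 0.05. Srebf2 and Npc2 were higher by only 0.0011 and 0.0087, and 2 of the 3 kept Npc2 probe sets had the opposite sign. Abcg1, which exports cholesterol to lipoprotein particles, stood at 9.60, 9.79, 9.56, 9.72 and 9.94 in heterozygous mice and 9.58, 9.27, 9.35, 9.43 and 9.28 in wildtype mice. The groups met only in heterozygous mouse 3 and wildtype mouse 1 (0.34, SE 0.10; limma adjusted p = 0.9999, unadjusted 0.00750). The lipogenic transcription factor gene Srebf1 differed by 0.30 (SE 0.20) and the cholesterol exporter gene Abca1 by 0.29 (SE 0.21). Of 13 fatty acid uptake and storage genes 6 had a higher and 7 a lower mean (median -0.0083), with the acyl-CoA synthetase gene Acsl3 at 0.51 (SE 0.30), Fabp5 at 0.22 (SE 0.16) and Fabp4 at -0.32 (SE 0.24). Of 7 transcription factor genes reported to act on Vldlr or Cd36, 4 had a higher and 3 a lower mean (median 0.019). Nfe2l2, the oxidative stress factor, differed by -0.34 (SE 0.13), with its other kept probe set of opposite sign, the hypoxia factor gene Epas1 by -0.38 (SE 0.17), and the lipid-sensing receptor gene Pparg by 0.34 (SE 0.15) at a level near the filter, 4.36 ± 0.35 in heterozygous and 4.02 ± 0.059 in wildtype islets.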

How the data were processed

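Islet RNA (100 ng input) was amplified over 2 cycles to biotinylated cRNA and hybridised to 1 array per mouse, per the labels' protocols. Per the submitters' processing notes, the authors deposited log2 values from GCRMA. This method corrects background by probe sequence and normalizes between arrays, so dim probe sets gather near 1 low level. The sources used here do not name its version. Probe sets were named through the platform annotation, and 64 control probe sets were left out.

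Differences were fitted with limma 3.58.1 (lmFit and eBayes) in R 4.3.3 over all 10 arrays without covariates, with Benjamini-Hochberg adjustment over 18567 probe sets, two-sided, at a threshold of 0.05. The fit and the correlation test were tested on simulated data. Correlations used deviations from the genotype means and exact permutations within genotypes. Lists entered with the brightest kept probe set per gene. Of each list the 3 genes with the smallest p were named, and for pattern likeness the 6 (Vldlr) or 3 closest genes. The members, lists and alternatives were chosen with earlier results of these data known. Promoter windows come from RefSeq (6 of the 8 genes matched); motifs of the ATF4 and sterol response elements were also searched at first, left out after their matches were seen because of their length, and are not reported here. Figures were drawn with matplotlib 3.10.9. The number of arrays limits the precision.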

Additional observations from a re-analysis of the deposited data

Results flagged for a closer look

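Groups of 5 mice of the 21 kept probe sets, 42 in all, were searched for a mouse far from the other 4 of its group, and 5 were found, where chance flags about 1 in 20 groups. Heterozygous mouse 5 was highest in Lrpap1 1426696_at (8.99, next 8.63) and in Sorl1 1426258_at (7.79, next 7.48). Heterozygous mouse 3 was lowest in Lrp1 1448655_at (6.09, next 6.45) and highest in Sort1 1423362_at (9.32, next 9.16). Wildtype mouse 5 was highest in the same Sort1 probe set (9.56, next 9.15). None of the flagged groups was a Vldlr, Scarb1, Lrp8 or Cd36 group.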

How the results depend on the processing

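Under 18 alternatives the count of probe sets at a limma adjusted p under 0.05 stayed 0, and so did the counts among the receptors and the related genes. At an unadjusted p under 0.05 the count was 760 of 18567, and 599 to 1037 in the alternatives with the same number of probe sets. With the stricter filter it was 508 of 12867, and without a filter 1097 of 45037. The share with a higher heterozygous mean among the 760 was 62.9%, but 49.6% after quantile normalization, and 48.4% (without heterozygous mouse 4) to 78.7% (without heterozygous mouse 3) with 1 mouse left out at a time. All 5 kept Vldlr probe sets kept their sign in every alternative run, the stricter filter having left 4 of them. These values chose the gene, so this describes them and is no test. In the 3 probe sets whose groups did not overlap, leaving out mice could not turn the sign. Leaving out 1 mouse at a time gave 0.51 to 0.63 for 1417900_a_at, 0.21 to 0.36 for 1434465_x_at, 0.29 to 0.39 for 1435893_at, 0.54 to 0.67 for 1438258_at and 0.12 to 0.38 for 1442169_at. Of the 21 receptor probe sets 15 never changed sign, the 5 of Vldlr among them.

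Signs changed in 6 probe sets, 5 of them with a difference within 0.03 of 0 and the other Lrp8 1440882_at (-0.12), and the cause was not tested. Lrp1 1442849_at stood at -0.017 after quantile normalization, -0.047 with array weights and -0.11 without heterozygous mice 2 and 5. Lrpap1 1426696_at stood at -0.017 after quantile normalization, -0.011 after median centring, -0.049 with array weights and -0.081 without mice 2 and 5. Sort1 1423362_at stood at 0.0066 with array weights and 0.017 without mice 2 and 5. With 1 mouse left out at a time, Lrp1 1442849_at ran from -0.081 to 0.12, Lrpap1 1426696_at from -0.077 to 0.071, 1426697_a_at from -0.071 to 0.057 and 1436609_a_at from -0.081 to 0.045, Sort1 1423362_at from -0.045 to 0.086 and Lrp8 1440882_at from -0.19 to 0.00070. The mean over all kept probe sets turned Lrpap1 to 0.082 and Sort1 to 0.21. The Sort1 mean includes 1450955_s_at (0.42), which passed the filter through the heterozygous arrays.

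Leaving out 1 mouse at a time gave 0 to 2 correlated probe set pairs of 23, with 1 (Scarb1) without heterozygous mouse 2 and 2 (Lrpap1 and Cd36) without heterozygous mouse 4. The correlations with marker lists stayed at 0 calls. Deviations of same-numbered mice correlated at -0.28 to 0.11, over 0.1 in 2 of 5 pairs, and 1 of 5 heterozygous mice correlated best with its own number. So few correlations cannot decide whether the replicate numbers pair the mice, for example by litter. With the replicate block 0 probe sets passed and 786 had an unadjusted p under 0.05.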
